A study of Rattus norvegicus with 9 samples.

Results

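Collagen genes were described in RNA sequencing of synovium, the lining tissue of the joint, from Lewis rats. The members are the 43 rows, of 32883 genes in the deposited table, whose symbol is Col, a number, a and a number. The 9 libraries fall into 3 groups of 3, labelled TZG, AIA and NC, and the labels do not spell these names out. From the series title, which names Tianhe Zhuifeng liquid extract and rheumatoid arthritis, TZG was read as the extract group, AIA as the arthritis model and NC as the control. All groups share the strain and the tissue, the labels give no age, dose or timing, and arthritis in the TZG animals is not stated. Nothing in the labels ties a library to an animal, so the p-values rest on a spread between libraries that may not be a spread between animals. The libraries are called G30, G31 and G48 (TZG), M2, M6 and M8 (AIA) and C56, C59 and C61 (NC) after their columns, and G31, G48, M2 and M8 were placed in their group by the column's letter alone.

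Collagens are secreted or membrane proteins whose chains wind into a triple helix. Fibrillar collagens form the cables that carry tension in tendon, bone, cartilage and the stroma of the synovium. FACIT collagens, the fibril-associated collagens with interrupted triple helices, sit on the surface of those cables. Type IV collagen forms the meshwork of basement membranes around vessels, nerves, muscle fibres and fat cells. Types II, IX, X and XI are the collagens of cartilage. The members fall into 11 fibrillar, 9 FACIT, 6 type IV and 2 multiplexin genes, 5 beaded filament genes of type VI, 3 short-chain network genes, 1 anchoring fibril gene, 4 transmembrane genes and 2 others.

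Libraries differed in the marker genes of tissues other than synovium. Totals were 12536231 to 16402126 reads. Synovial fibroblast markers (8 of 8 with reads in every library) summed to 12000 to 16900 CPM in TZG, 14400 to 30300 CPM in AIA and 7510 to 38900 CPM in NC, where CPM is the read count scaled to library size, with TMM factors. Fn1 was the largest part of this sum in every library and Prg4 the next, with Fn1 at 12200 CPM in G30 and 28400 CPM in C56. Pdgfra and Thy1 were highest in G48, at 473 and 191 CPM, Pdpn in G31, at 110 CPM, and the other markers in C56 or C59. Skeletal muscle markers summed to 25200 CPM in C61 and 1320 CPM in C59, against 13 to 77.6 CPM in the other libraries. Bone markers summed to 2730 CPM in G48, 240 and 253 CPM in the other TZG libraries, 31 to 136 CPM in AIA and 21.2 to 37 CPM in NC. Marrow and red cell markers summed to 5170 CPM in M8, most of it from Hbb at 4250 CPM. They summed to 832 and 722 CPM in M2 and M6, 659 to 1260 CPM in TZG and 227 to 729 CPM in NC. In bulk tissue, fewer cells of a type and less RNA per cell cannot be told apart. Results are therefore also given without G48, without C61, or without C61, M8 and G48 together where this moved them.

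The collagen genes did not move as a block. In TZG against NC the type IV chains Col4a3, Col4a4 and Col4a5 and the type XXVIII gene Col28a1 fell, and the FACIT gene Col12a1 rose. The major type IV chains Col4a1 and Col4a2 and the type I and III genes did not pass, nor did any collagen gene in the comparisons of AIA with NC and of TZG with AIA. Of the 43 members, 39 had enough reads to be tested, and 4 did not (Col6a4, Col19a1, Col25a1 and Col26a1, with 54, 18, 27 and 4 reads in all libraries together). The test was edgeR's quasi-likelihood test with Benjamini-Hochberg adjustment over 15068 genes, and a gene passed at an adjusted p under 0.05.

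In TZG against NC, 1 collagen gene rose and 4 fell, 12.8% of those tested, against 10.3% of all genes tested, so the family's share of calls is near the background. The share that fell was 10.3% of the collagen genes, against 4.53% of all genes, and the share that rose was 2.56%, against 5.79% of all genes. At an unadjusted p under 0.05 there were 16 higher and 5 lower, 53.8% of the family, against 29.1% of all genes (15.1% higher and 14% lower). DESeq2 called 8 higher and 5 lower, where it called 19.6% of all genes. By sign alone 29 collagen genes were higher and 10 lower, and the median log2 fold change was 0.76, against -0.02 for all genes. The median was 0.36 without G48 and 0.08 without C61, M8 and G48. The shares of all genes that rose and fell also moved with the libraries. They were 0.976% and 1.2% without C56, 2.65% and 2.95% without C59, and 2.45% and 1.37% without G30. Without G31 they were 2.06% and 0.931%, without G48 3.84% and 2.51%, and without C61 3.72% and 4%. Without C61, M8 and G48 they were 7.7% and 6.67%. The counts of collagen genes that rose and fell were 0 and 1 without C56 or C59, 1 and 1 without G30, 3 and 1 without G31, 2 and 5 without G48, 1 and 6 without C61, and 2 and 8 without C61, M8 and G48. With the 5 columns matched by number, which leave 1 TZG and 1 AIA library, they were 0 and 0.

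In TZG against AIA 0 collagen genes passed, as did 0% of all genes. At an unadjusted p under 0.05 there were 12 higher and 1 lower, 33.3% of the family, against 12.6% of all genes (6.2% higher and 6.37% lower). DESeq2 called 2 higher and 0 lower, where it called 1.99% of all genes. The counts by sign were again 29 and 10, and the median log2 fold change of 0.67 was 0.19 without G48. In AIA against NC 0 passed, against 0.0133% of all genes (0.00664% higher and 0.00664% lower). At an unadjusted p under 0.05 there were 0 higher and 4 lower, 10.3% of the family, against 15% of all genes (8.26% higher and 6.77% lower), and the median was -0.01. DESeq2 called 1 higher and 3 lower, where it called 6.24% of all genes. The 3 comparisons share libraries and are not independent of each other.

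Collagen genes whose libraries did not overlap between groups numbered 10 higher and 5 lower in TZG against NC, 25.6% and 12.8% of the family, against 17.4% and 15.2% of all genes. They numbered 5 and 3 in TZG against AIA, 12.8% and 7.69%, against 10.7% and 12.7% of all genes. In AIA against NC they numbered 1 and 5, 2.56% and 12.8%, against 11.2% and 9.22% of all genes.

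**Figure D1:**
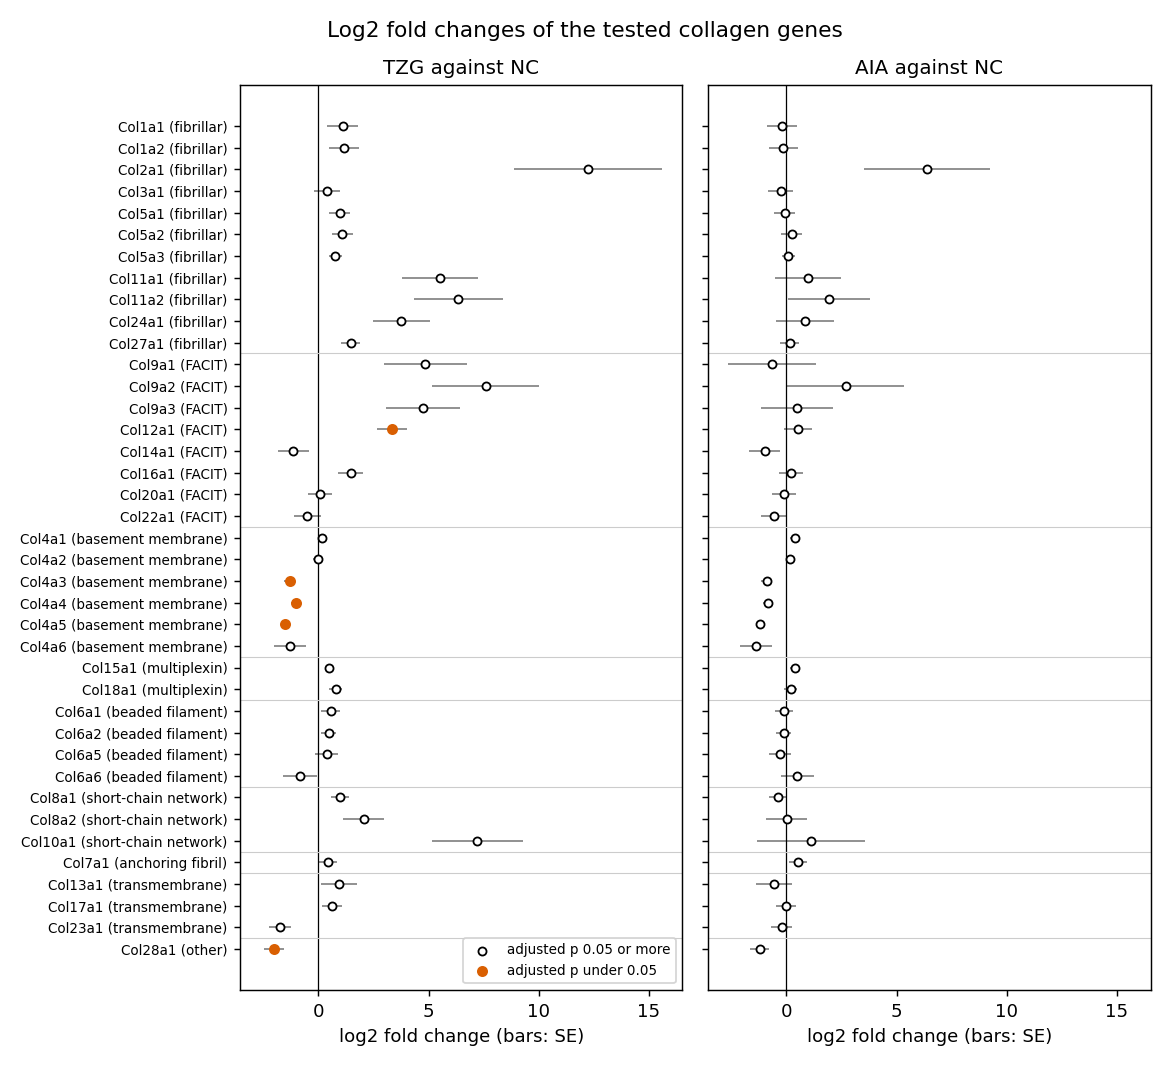
Log2 fold changes of the 39 tested collagen genes, grouped by class, in TZG against NC (left) and AIA against NC (right), with bars for the SE. Filled points mark an adjusted p under 0.05: Col12a1 to the right of 0 and Col4a3, Col4a4, Col4a5 and Col28a1 to the left of it in TZG against NC, and no point in AIA against NC.

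The family made up much of the transcriptome. Collagen genes took 5.01%, 4.8% and 10.5% of all reads in the TZG libraries (6.76 ± 3.21% SD, n = 3), 3.16%, 5.07% and 2.65% in AIA (3.63 ± 1.28% SD, n = 3) and 4.43%, 5.48% and 1.46% in NC (3.79 ± 2.09% SD, n = 3). The groups overlapped, G48 was the highest library and C61 the lowest. Col1a1, Col1a2 and Col3a1 together took 72.4%, 74.3% and 78.4% of the collagen reads in TZG, 67% to 72.4% in AIA and 74.7%, 80.2% and 49% in NC. In C61, Col4a1 and Col4a2 took 28% of collagen reads, against 3.62% in G48 and 6.03% to 16.8% in the other 7 libraries. Per kilobase of gene length, the mean level over all libraries was highest for Col3a1 (2640 FPKM), Col1a1 (2500 FPKM) and Col1a2 (1660 FPKM), followed by Col4a1 (482 FPKM), Col6a1 (357 FPKM), Col6a2 (354 FPKM) and Col4a2 (265 FPKM).

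**Figure D2:**
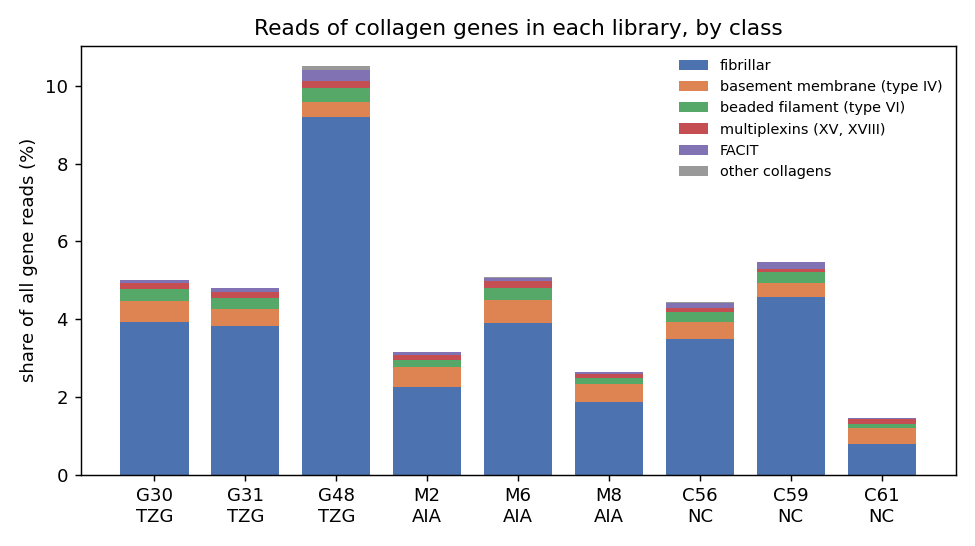
Share of all gene reads, in percent, taken by collagen genes in each library, stacked by class. The stack reaches 10.5% in G48 and 1.46% in C61, and the type IV layer stays between 0.342% and 0.597% in all 9 libraries while the fibrillar layer runs from 0.79% to 9.2%.

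Fibrillar collagens stood higher in TZG by sign, and 0 of the 11 passed in any comparison in edgeR with all libraries. Col1a1, which encodes the main chain of type I collagen, stood at 13300, 13600 and 42800 CPM in TZG, 8080, 13600 and 6970 CPM in AIA and 13100, 16500 and 2970 CPM in NC. G30 and G31 lay within the range of the NC libraries, G48 above it, and C61 far below its group. The log2 fold change was 1.10 ± 0.69 SE in TZG against NC (edgeR adjusted p = 0.33), and -0.13 without C61, M8 and G48. Its partner chain Col1a2 followed it, at 7760, 7190 and 22400 CPM in TZG, 4520, 7140 and 3530 CPM in AIA and 6180, 8950 and 1610 CPM in NC. Its fold change was 1.16 ± 0.66 SE on the log2 scale in TZG against NC (edgeR adjusted p = 0.29). The reads of a second row described as the same gene, NEWGENE_621351, came to 3.79% of both, so reads of this gene may be split between the rows. Col3a1, the chain of type III collagen in loose and healing stroma, stood at 13400, 13100 and 20800 CPM in TZG, 8290, 14800 and 6860 CPM in AIA and 13800, 19000 and 3310 CPM in NC. This overlapped throughout, with a log2 fold change of 0.39 in TZG against NC (edgeR adjusted p = 0.7) that was -0.04 without C61.

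Type V collagen nucleates type I fibrils and sets their diameter, and none of its 3 genes passed. Col5a1 stood at 984, 1050 and 1740 CPM in TZG, 479, 914 and 430 CPM in AIA and 773, 909 and 259 CPM in NC. Col5a2 stood at 723, 695 and 1460 CPM in TZG, 467, 726 and 394 CPM in AIA and 514, 636 and 206 CPM in NC. For Col5a1 and Col5a2 the 3 TZG libraries lay above the 3 NC libraries. The log2 fold changes in TZG against NC were 0.96 and 1.09, with edgeR adjusted p of 0.23 and 0.16. The third chain, Col5a3, averaged 549 ± 188 CPM in TZG, 343 ± 69.4 CPM in AIA and 324 ± 62.9 CPM in NC (SD, n = 3 each). TZG and NC overlapped, since G48 (335 CPM) lay below G30 and G31 (684 and 629 CPM) and within the NC range. It passed in TZG against NC without G48 (edgeR adjusted p = 0.042). Col27a1, a fibrillar collagen of growing cartilage, averaged 45.2 ± 33.3 CPM in TZG, 18 ± 1.39 CPM in AIA and 16.3 ± 2.23 CPM in NC (SD, n = 3 each). Its TZG libraries lay above all others, with edgeR adjusted p of 0.31 against AIA and 0.066 against NC (0.047 without G31). DESeq2 called Col27a1 higher in TZG against NC (adjusted p = 0.0078). All 11 fibrillar genes had a positive log2 fold change in TZG against NC and in TZG against AIA, with medians of 1.16 and 1.3. Without G48 the medians were 0.66 and 0.51, and 1 of the 11 was negative in TZG against AIA. Without C61, M8 and G48 the 3 genes Col1a1, Col1a2 and Col3a1 were negative in TZG against NC, and without C61 alone Col3a1 was.

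The balance of type I to type III reads set G48 apart from the other libraries. The ratio of Col1a1 to Col3a1 reads was 0.992, 1.04 and 2.06 in TZG, 0.974, 0.92 and 1.02 in AIA and 0.953, 0.87 and 0.898 in NC. Outside G48 it stayed between 0.87 and 1.04, although Col1a1 itself ranged from 2970 to 16500 CPM there. The ratio of Col1a1 to Col1a2, the chains of one heterotrimer, stayed between 1.72 and 2.13 in all libraries, G48 included. These are ratios of reads, which carry the genes' lengths.

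**Figure D3:**
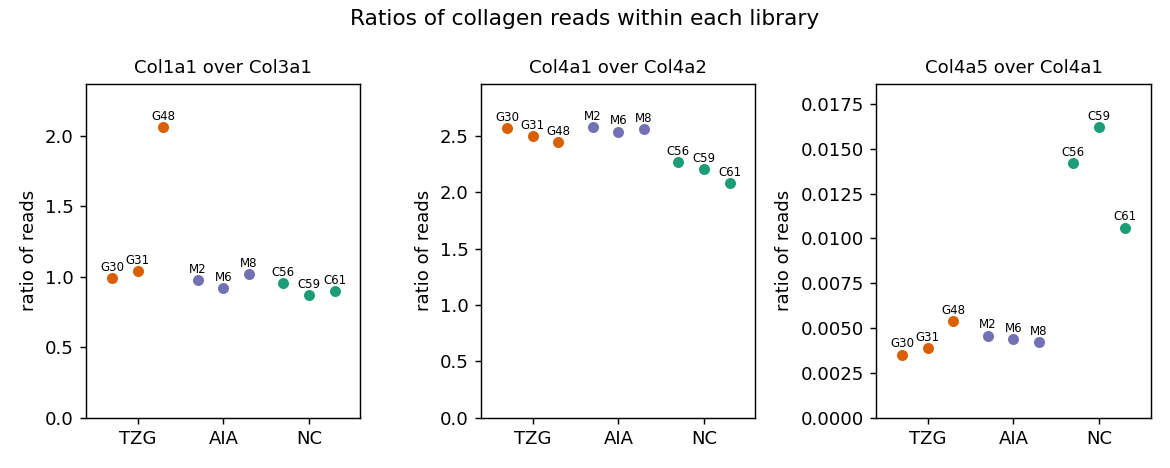
Ratios of reads within each library for Col1a1 over Col3a1, Col4a1 over Col4a2 and Col4a5 over Col4a1, with TZG, AIA and NC from left to right. G48 stands alone at 2.06 in the first panel, and the TZG and AIA libraries lie apart from all 3 NC libraries in the other panels.

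FACIT collagens held the one gene of the family that rose. Col12a1 encodes type XII collagen, a fibril-surface protein of tendon, ligament and other load-bearing tissue. It stood at 205, 369 and 1090 CPM in TZG, 50.2, 138 and 46.5 CPM in AIA and 69.2, 51.5 and 41.9 CPM in NC. All 3 TZG libraries lay above all 6 others, and AIA overlapped NC. The log2 fold change was 3.35 ± 0.68 SE in TZG against NC (a fold of 10.2, edgeR adjusted p = 0.024), 2.83 ± 0.67 SE in TZG against AIA (edgeR adjusted p = 0.26) and 0.53 ± 0.63 SE in AIA against NC (edgeR adjusted p = 0.76). In TZG against NC it passed without G48 at a log2 fold change of 2.41 (edgeR adjusted p = 0.036) but not without G31, C56, C59 or C61, with adjusted p of 0.05, 0.068, 0.066 and 0.06. Without C61, M8 and G48 together it did not pass, at a log2 fold change of 2.26 (edgeR adjusted p = 0.05). In AIA against NC its sign turned without M6, at -0.16. DESeq2 called Col12a1 higher in TZG against AIA (adjusted p = 0.00094) and in TZG against NC (adjusted p = 9.4e-07). In the deposited table Col12a1 (ENSRNOG00000058470) lies on chromosome 8 at 87040799 to 87158368, with the build not given in the sources used here. Tendon markers, whose tissue also carries type XII collagen, summed to 332, 317 and 1620 CPM in TZG, 178, 227 and 135 CPM in AIA and 294, 382 and 166 CPM in NC, and their part in the result was not tested.

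Col14a1, the related FACIT collagen of skin and tendon stroma, did not share this pattern. It stood at 345, 220 and 551 CPM in TZG, 461, 438 and 337 CPM in AIA and 885, 1450 and 122 CPM in NC. C61 lay below every other library and C56 and C59 above every other, so the log2 fold change of -1.14 in TZG against NC did not pass (edgeR adjusted p = 0.33). Without C61 it was -1.64 and passed (edgeR adjusted p = 0.041). The ratio of Col12a1 to Col14a1 reads was 0.595, 1.68 and 1.98 in TZG, 0.109, 0.315 and 0.138 in AIA and 0.0782, 0.0355 and 0.344 in NC, with every TZG library above the others. Col16a1, a FACIT collagen of fibroblasts and smooth muscle, averaged 308 ± 269 CPM in TZG, 128 ± 44.6 CPM in AIA and 111 ± 34.1 CPM in NC (SD, n = 3 each; edgeR adjusted p = 0.13 in TZG against NC). DESeq2 called Col16a1 higher in TZG against NC (adjusted p = 0.034). Col22a1, found at tissue junctions, averaged 89.7 ± 46 CPM in TZG, 85.9 ± 24.1 CPM in AIA and 127 ± 83.6 CPM in NC. Its log2 fold change in TZG against NC was -0.5 (edgeR adjusted p = 0.62). Without C61, M8 and G48 it was -1.43 and passed (edgeR adjusted p = 0.026). Col20a1 had 281 reads in all. Of the 8 FACIT genes tested, 6 were higher and 2 lower by sign in TZG against NC, with a median log2 fold change of 2.41 that was 0.02 without G48. The class holds the 3 type IX genes of cartilage.

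Type IV collagen divided along its chains. The chains of Col4a1 and Col4a2 form the network found in most basement membranes, whereas those of Col4a3, Col4a4 and Col4a5 form a separate network best known from the kidney glomerulus. The genes lie in head-to-head pairs, read away from each other from nearby starts, which is why their promoter windows are shown here. In RefSeq's GRCr8 annotation the starts of Col4a1 and Col4a2 are 77 bases apart and those of Col4a3 and Col4a4 are 413 apart. Col4a5 and Col4a6 start 1415 bases apart. Each window runs from 250 bases before the start to 50 after it, on the gene's own strand, at chr16:84885347-84885646 (plus) for Col4a1, chr16:84885471-84885770 (minus) for Col4a2, chr9:91323740-91324039 (plus) for Col4a3, chr9:91323528-91323827 (minus) for Col4a4 and chrX:109907109-109907408 (plus) for Col4a5. Capitals mark the bases that both windows of a pair hold, read on opposite strands: 176 in the first pair, 88 in the second and 0 for Col4a5.
Col4a1: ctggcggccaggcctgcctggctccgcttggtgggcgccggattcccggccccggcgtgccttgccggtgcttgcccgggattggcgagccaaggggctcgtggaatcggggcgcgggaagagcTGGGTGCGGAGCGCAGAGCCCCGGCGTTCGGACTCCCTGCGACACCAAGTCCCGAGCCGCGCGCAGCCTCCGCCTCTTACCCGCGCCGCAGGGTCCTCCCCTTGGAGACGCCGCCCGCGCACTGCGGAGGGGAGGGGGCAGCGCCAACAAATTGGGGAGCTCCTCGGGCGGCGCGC
Col4a2: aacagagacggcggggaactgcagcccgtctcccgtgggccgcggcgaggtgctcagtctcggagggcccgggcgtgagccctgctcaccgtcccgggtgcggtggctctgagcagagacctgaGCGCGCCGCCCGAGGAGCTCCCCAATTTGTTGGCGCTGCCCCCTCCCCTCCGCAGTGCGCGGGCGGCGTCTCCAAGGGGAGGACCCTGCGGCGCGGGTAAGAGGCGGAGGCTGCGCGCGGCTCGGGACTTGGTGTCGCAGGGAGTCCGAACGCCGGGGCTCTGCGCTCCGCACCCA
Col4a3: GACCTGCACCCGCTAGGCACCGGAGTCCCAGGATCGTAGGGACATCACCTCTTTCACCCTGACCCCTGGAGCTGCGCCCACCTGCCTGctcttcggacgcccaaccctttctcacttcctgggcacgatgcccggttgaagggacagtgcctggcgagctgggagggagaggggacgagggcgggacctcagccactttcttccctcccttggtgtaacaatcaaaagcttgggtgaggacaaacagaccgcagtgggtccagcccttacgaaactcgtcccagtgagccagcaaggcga
Col4a4: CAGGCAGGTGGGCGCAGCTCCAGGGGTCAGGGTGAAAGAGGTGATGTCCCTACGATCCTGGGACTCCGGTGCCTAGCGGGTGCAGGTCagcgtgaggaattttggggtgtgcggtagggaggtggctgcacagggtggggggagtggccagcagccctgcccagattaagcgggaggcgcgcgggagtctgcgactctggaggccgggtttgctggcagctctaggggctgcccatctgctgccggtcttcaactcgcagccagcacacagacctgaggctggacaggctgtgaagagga
Col4a5: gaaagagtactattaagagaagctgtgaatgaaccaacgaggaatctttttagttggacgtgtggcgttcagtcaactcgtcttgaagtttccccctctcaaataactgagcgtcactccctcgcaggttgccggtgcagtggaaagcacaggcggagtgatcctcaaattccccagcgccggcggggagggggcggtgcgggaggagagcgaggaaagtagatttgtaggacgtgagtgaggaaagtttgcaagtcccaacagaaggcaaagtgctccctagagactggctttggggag

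The windows of the pair Col4a1 and Col4a2 were 75% and 73.7% G and C with 38 and 37 CpG, those of Col4a3 and Col4a4 62% and 65.3% with 15 and 14 CpG, and that of Col4a5 53.3% with 15 CpG. The median over 33469 windows was 51.7% and 7 CpG. The GC box GGGCGG, searched on both strands, was found at 2 places in each window of the first pair, at 1 in Col4a3 and Col4a5 and at 0 in Col4a4, and 33.1% of all windows held it. CCAAT, on both strands, was found at 2 places in Col4a1 and 1 in Col4a2 and at 0 in the other windows shown, against 37.5% of windows that held it. TATAAA was found in none of the windows of the 6 type IV genes and in 14.2% of all windows. Windows that overlap that of a gene read the other way made up 9.28% of all windows.

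The first pair was abundant and did not pass in any comparison. Col4a1 stood at 3570, 2940 and 2820 CPM in TZG, 3630, 4110 and 3150 CPM in AIA and 2950, 2300 and 3050 CPM in NC. AIA lay above NC in all libraries and TZG overlapped both, with log2 fold changes of 0.17 ± 0.21 SE in TZG against NC (edgeR adjusted p = 0.63) and 0.39 ± 0.21 SE in AIA against NC (edgeR adjusted p = 0.42). Col4a2 stood at 1390, 1170 and 1150 CPM in TZG, 1410, 1620 and 1230 CPM in AIA and 1300, 1040 and 1470 CPM in NC. The groups overlapped, and its log2 fold change of -0.04 in TZG against NC (edgeR adjusted p = 0.92) turned positive with single libraries left out, up to 0.10. The ratio of Col4a1 to Col4a2 reads was nonetheless tight, at 2.57, 2.5 and 2.45 in TZG, 2.58, 2.54 and 2.56 in AIA and 2.27, 2.21 and 2.08 in NC. Every TZG and AIA library lay above every NC library in this ratio.

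The genes of the second network fell in TZG against NC. Col4a5 stood at 12.6, 11.5 and 15.2 CPM in TZG, 16.6, 18.1 and 13.2 CPM in AIA and 41.8, 37.3 and 32.4 CPM in NC. The highest of the TZG and AIA libraries, at 18.1 CPM, lay well below the lowest NC library, at 32.4 CPM. It fell by 1.51 ± 0.17 SE on the log2 scale in TZG against NC (edgeR adjusted p = 0.012). In AIA against NC the log2 fold change was -1.22 ± 0.17 SE (edgeR adjusted p = 0.075), and in TZG against AIA it was -0.29 ± 0.17 SE (edgeR adjusted p = 0.5). The ratio of Col4a5 to Col4a1 reads was 0.00352, 0.0039 and 0.00539 in TZG, 0.00458, 0.0044 and 0.0042 in AIA and 0.0142, 0.0162 and 0.0106 in NC.

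Col4a3 stood at 5.99, 6.43 and 6 CPM in TZG, 9.59, 7.8 and 7.16 CPM in AIA and 16.8, 18.8 and 9.78 CPM in NC. The 3 groups did not overlap, with TZG lowest and NC highest. It fell by 1.3 ± 0.25 SE on the log2 scale in TZG against NC (edgeR adjusted p = 0.02), and the values were -0.89 ± 0.25 SE in AIA against NC (edgeR adjusted p = 0.15) and -0.41 ± 0.25 SE in TZG against AIA (edgeR adjusted p = 0.51). Its pair Col4a4 stood at 20.4, 21.6 and 28.3 CPM in TZG, 28.1, 29.7 and 20.7 CPM in AIA and 53.6, 53.1 and 35 CPM in NC. TZG and AIA overlapped each other and lay below NC. It fell by 1.01 ± 0.22 SE on the log2 scale in TZG against NC (edgeR adjusted p = 0.027), with -0.85 ± 0.22 SE in AIA against NC (edgeR adjusted p = 0.13). The ratio of Col4a3 to Col4a4 reads was 0.212 to 0.298 in TZG, 0.263 to 0.346 in AIA and 0.28 to 0.354 in NC. Col4a6, the partner of Col4a5, rested on 111 reads in all and averaged 0.582 ± 0.656 CPM in TZG, 0.553 ± 0.234 CPM in AIA and 1.46 ± 0.426 CPM in NC (SD, n = 3 each). Its edgeR adjusted p was 0.27 in TZG against NC, and 0.041 without G48.

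In the deposited table, with no build given, Col4a3 (ENSRNOG00000015365) lies on chromosome 9 at 88357556 to 88485830, next to Col4a4 (ENSRNOG00000014851) at 88232455 to 88357182, 374 bases away. Col4a5 (ENSRNOG00000018951) lies on chromosome X at 112769645 to 112983685, and Col4a6 at 112405647 to 112473822. Col4a2 and Col4a1 lie 83601 bases apart on chromosome 16 in that table, unlike the 77 bases between their starts in GRCr8. Of the 6 type IV genes 3 fell and 0 rose in TZG against NC, where 4.53% of all genes fell and 5.79% rose. Col4a5 passed in 17 of 18 other settings of the test, Col4a3 in 13 and Col4a4 in 12. Col4a3 and Col4a4 did not pass without G30, G31, C56 or C59, with adjusted p of 0.062, 0.061, 0.067 and 0.05 for Col4a3 and 0.086, 0.086, 0.081 and 0.067 for Col4a4, and passed without C61 or G48. Col4a4 did not pass with 2 groups in the fit (adjusted p = 0.053). In AIA against NC Col4a5 and Col4a4 passed without C61, M8 and G48, with log2 fold changes of -1.19 and -0.89 (edgeR adjusted p of 0.02 and 0.026). DESeq2 with all libraries called Col4a5, Col4a4 and Col4a3 lower in AIA against NC, with adjusted p of 2.3e-07, 0.014 and 0.029. It called 2.36% of all genes lower there. The summed markers of cells that rest on basement membranes were set beside these genes, with no test. Mural cell markers summed to 1900 to 2570 CPM in TZG, 2750 to 3660 CPM in AIA and 3280 to 5230 CPM in NC. Schwann cell markers (6 of 6 with reads in every library) summed to 198 to 356 CPM in TZG, 350 to 577 CPM in AIA and 425 to 1130 CPM in NC. Endothelial markers summed to 1390 to 1620 CPM in TZG, 1780 to 2030 CPM in AIA and 1610 to 2200 CPM in NC. Adipocyte markers summed to 1050 to 4750 CPM in TZG, 5450 to 7560 CPM in AIA and 2810 to 9600 CPM in NC. The mural and Schwann cell sums of TZG lay below those of NC in every library, and the endothelial and adipocyte sums overlapped between TZG and NC. Of the single mural and Schwann cell markers, Pdgfrb, Cspg4 and Mbp overlapped between TZG and NC, and the others lay below NC. S100b was the largest part of the Schwann cell sum in every library, with 729 of 1130 CPM in C61. The part of these cells in the lower type IV levels was not tested.

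**Figure D4:**
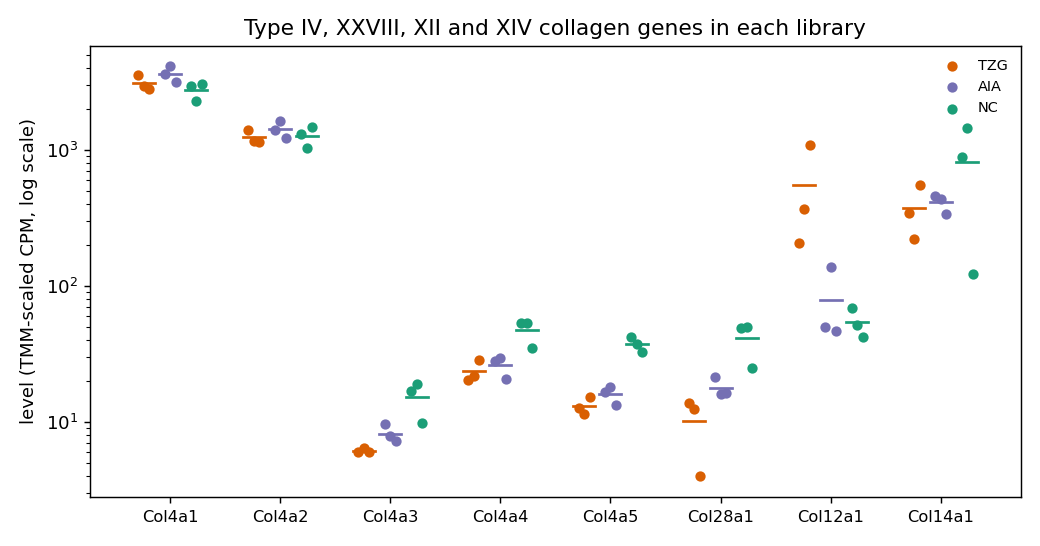
Levels of type IV, XXVIII, XII and XIV collagen genes in each library, in TMM-scaled CPM on a log axis, with TZG, AIA and NC from left to right for each gene and a bar at the group mean. Col4a3, Col4a4, Col4a5 and Col28a1 lie lower in all TZG and AIA libraries than in NC, Col4a1 and Col4a2 overlap between TZG and NC, and Col12a1 lies higher in the 3 TZG libraries.

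Col28a1 fell with these chains. It encodes type XXVIII collagen, a member known in mice from the basement membranes around Schwann cells of peripheral nerve. It stood at 13.8, 12.4 and 3.96 CPM in TZG, 21.4, 15.9 and 16.2 CPM in AIA and 48.7, 49.7 and 24.8 CPM in NC. The 3 groups did not overlap, with G48 the lowest library. It fell by 2.03 ± 0.45 SE on the log2 scale in TZG against NC (edgeR adjusted p = 0.028), and the value was -1.21 ± 0.43 SE in AIA against NC (edgeR adjusted p = 0.23) and -0.83 ± 0.44 SE in TZG against AIA (edgeR adjusted p = 0.46). It did not pass without G30, G31, C56 or C59, with adjusted p of 0.055, 0.07, 0.082 and 0.068, and passed without C61 or G48. With 2 groups in the fit it did not pass either (adjusted p = 0.07). In AIA against NC it passed without C61, M8 and G48 (log2 fold change -1.41, edgeR adjusted p = 0.02). The Schwann cell sums are given above, and their part in the Col28a1 levels was not tested. Col28a1 (ENSRNOG00000033618) lies on chromosome 4 at 34048533 to 34194764 in the deposited table.

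The multiplexins Col15a1 and Col18a1 belong to the zone between basement membrane and stroma, and Col18a1 is the source of the fragment endostatin. Col15a1 stood at 761, 653 and 853 CPM in TZG, 643, 913 and 545 CPM in AIA and 536, 518 and 560 CPM in NC. Col18a1 stood at 729, 844 and 1230 CPM in TZG, 589, 816 and 445 CPM in AIA and 536, 404 and 682 CPM in NC. Both lay above NC in every TZG library without passing, with log2 fold changes of 0.49 and 0.79 in TZG against NC and edgeR adjusted p of 0.15 and 0.12. DESeq2 called Col18a1 higher in TZG against NC (adjusted p = 0.047). A second row, LOC108348074, described as resembling the same gene, held 19.2% of the reads of both rows for Col15a1.

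Type VI collagen, whose beaded filaments surround cells, did not pass in any comparison. Col6a1 stood at 1320, 1230 and 1760 CPM in TZG, 783, 1350 and 627 CPM in AIA and 1240, 1250 and 466 CPM in NC. Col6a2 stood at 1520, 1520 and 1880 CPM in TZG, 960, 1540 and 783 CPM in AIA and 1420, 1470 and 680 CPM in NC. Col6a1 overlapped between TZG and NC and Col6a2 lay above NC in every TZG library, with log2 fold changes of 0.55 and 0.46 (edgeR adjusted p of 0.42 and 0.41). A row named AABR07068316.1, described as the third chain of type VI, falls outside the family's rule and held 1403, 1357 and 1473 unscaled CPM in TZG, 828.6, 1187 and 709.8 in AIA and 1042, 981.2 and 393.4 in NC. Col6a6 had 55.7, 15.5 and 6.38 CPM in TZG, 49.6, 75.9 and 71.1 CPM in AIA and 54.1, 72.2 and 13.5 CPM in NC, lowest in G48, with a log2 fold change of -1.34 in TZG against AIA (edgeR adjusted p = 0.49). Col6a5 averaged 14.1 ± 10.2 CPM in TZG, 8.87 ± 4.58 CPM in AIA and 11 ± 1.95 CPM in NC (SD, n = 3 each).

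In the short-chain, anchoring fibril and transmembrane classes 0 genes passed in edgeR with all libraries. Col8a1, a short-chain collagen of vessel walls, had 54.1, 53.7 and 155 CPM in TZG, 26.6, 46.4 and 30.8 CPM in AIA and 45.3, 48.9 and 41.1 CPM in NC. Its TZG libraries lay above all others, with log2 fold changes of 1.34 ± 0.41 SE against AIA (edgeR adjusted p = 0.31) and 0.96 ± 0.41 SE against NC (edgeR adjusted p = 0.16). Col8a2 had 35.9, 19.7 and 377 CPM in TZG, 28.1, 46 and 30.8 CPM in AIA and 34, 42.4 and 27.8 CPM in NC, so G48 alone was high. Col7a1, the anchoring fibril collagen, had 11.2, 13 and 10 CPM in TZG, 9.74, 15.4 and 11.4 CPM in AIA and 4.88, 5.39 and 15.2 CPM in NC. C56 and C59 lay below every TZG library and C61 above, and without C61 it passed in TZG against NC (log2 fold change 1.17, edgeR adjusted p = 0.035). Col13a1, a transmembrane collagen of cell contacts, had 3.33, 4.22 and 29.2 CPM in TZG, 5.27, 2.64 and 5.03 CPM in AIA and 10.1, 5.46 and 3.53 CPM in NC. Col23a1, another transmembrane member, rested on 143 reads in all, with 0.599, 0.346 and 0.383 CPM in TZG, 1.1, 1.63 and 1.17 CPM in AIA and 1.9, 1.97 and 0.617 CPM in NC. Its log2 fold change was -1.75 in TZG against NC (edgeR adjusted p = 0.06). Without C61 it was -2.09 and passed (edgeR adjusted p = 0.031), and DESeq2 called Col23a1 lower with all libraries (adjusted p = 0.027). However, a second row described as the same chain held 49.5% of the reads of both rows. Col17a1, the hemidesmosome collagen of epithelia, averaged 13.5 ± 2.55 CPM in TZG, 8.67 ± 2.57 CPM in AIA and 8.71 ± 5.17 CPM in NC (SD, n = 3 each).

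The cartilage collagens varied widely between libraries, and 0 of the 7 passed in any comparison in edgeR with all libraries. DESeq2 called 4 of them higher in TZG against NC, Col2a1, Col10a1, Col11a2 and Col9a3, with adjusted p of 4.6e-07, 0.00064, 0.0016 and 0.015, as well as Col10a1 in TZG against AIA (0.026) and Col2a1 in AIA against NC (0.043). In edgeR without G31, Col2a1 and Col10a1 passed in TZG against NC (adjusted p of 0.048 and 0.047). Col2a1, the fibrillar collagen of hyaline cartilage, stood at 358, 1.04 and 5410 CPM in TZG, 0.22, 7.32 and 91.7 CPM in AIA and 0.317, 0.197 and 0.705 CPM in NC. TZG lay above NC in every library, but by a wide margin in G48 and G30 and a narrow one in G31. The log2 fold change was 12.25 ± 3.36 SE in TZG against NC (edgeR adjusted p = 0.052) and 6.39 ± 2.85 SE in AIA against NC (edgeR adjusted p = 0.34). Col10a1, made by hypertrophic chondrocytes, stood at 5.06, 0.277 and 115 CPM in TZG, 0.0732, 0.203 and 1.45 CPM in AIA and 0.127, 0.263 and 0.441 CPM in NC. Its log2 fold change was 6.1 ± 1.88 SE in TZG against AIA (edgeR adjusted p = 0.31) and 7.21 ± 2.07 SE in TZG against NC (edgeR adjusted p = 0.059). Col11a1, which nucleates cartilage fibrils, stood at 27.3, 9.4 and 904 CPM in TZG, 4.47, 25.6 and 10.3 CPM in AIA and 10.8, 8.16 and 1.23 CPM in NC, with a log2 fold change of 5.52 in TZG against NC (edgeR adjusted p = 0.078).

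The type IX genes, FACIT partners of type II fibrils, and Col11a2 followed G48 in the same way. Col9a1, Col9a2, Col9a3 and Col11a2 stood at 122, 111, 133 and 429 CPM in G48. In the other 8 libraries these genes lay between 0 and 18.7 CPM. The 7 genes summed to 420, 12.5 and 7220 CPM in TZG, 7.84, 37.7 and 131 CPM in AIA and 15.8, 13.7 and 8.46 CPM in NC. All 7 were higher in TZG than in NC by sign, with a median log2 fold change of 6.35, which was 2.42 without G48, when 6 were higher and 1 lower. In TZG against AIA the median was 4.91, and 0.51 without G48. Cartilage markers other than collagens summed to 440, 274 and 2460 CPM in TZG, 482, 402 and 267 CPM in AIA and 336, 617 and 14.4 CPM in NC, most of it from Comp, which tendon also makes. All 8 of these markers are in the table, Acan, Matn1 and Snorc are at 0 in at least 1 library, and Acan stood at 64.5, 82.5 and 510 CPM in TZG, 2.71, 11.9 and 22.7 CPM in AIA and 0.507, 4.27 and 0 CPM in NC. Ibsp, a gene of bone and mineralising cartilage, stood at 44.5, 0.553 and 673 CPM in TZG, 0, 0.271 and 12.9 CPM in AIA and at 0 in all NC libraries. The order G48, G30, M8 was the same for Col2a1 and Ibsp. Hapln1, Chad, Snorc and Alpl shared it, and the other cartilage and bone markers did not. Bglap stood at 380 CPM in G48, 19.6 CPM in M8 and 15.8 CPM in G30. Spp1 and Acan were second highest in G31, at 228 and 82.5 CPM. The part of cartilage or bone in the tissue was not tested.

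**Figure D5:**
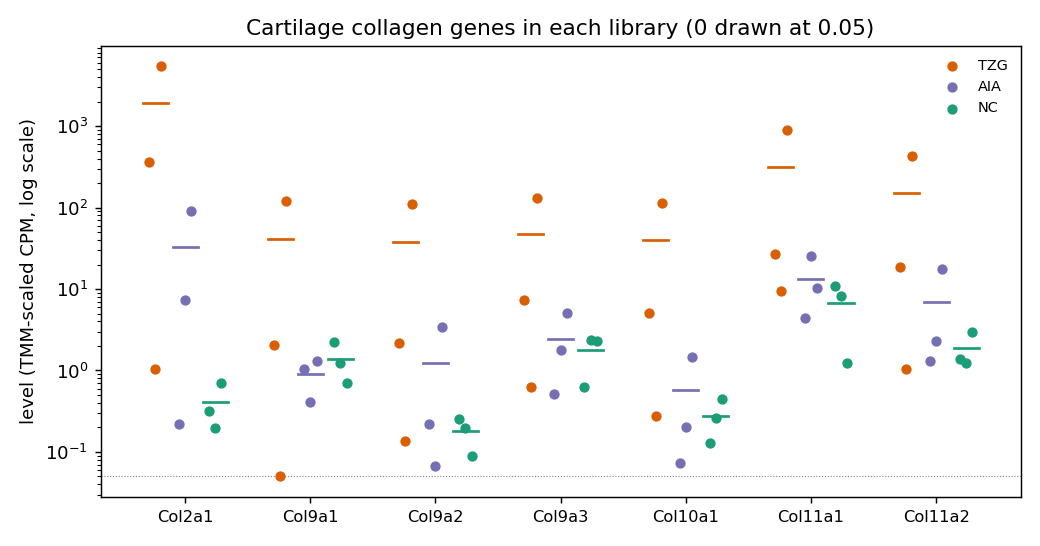
Levels of the 7 cartilage collagen genes in each library, in TMM-scaled CPM on a log axis, with TZG, AIA and NC from left to right for each gene, a bar at the group mean and values of 0 drawn at 0.05. The highest point of every gene is G48, from 111 CPM for Col9a2 to 5410 CPM for Col2a1.

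Genes that make, crosslink, bind or cut collagen were taken from lists of 67 genes, of which 58 were tested. In TZG against NC 8 rose and 0 fell, 13.8% of those tested, where 5.79% of all genes rose. The number that rose was 3, 4, 5 and 4 without G30, G31, G48 or M2, where 2.45%, 2.06%, 3.84% and 4.43% of all genes rose. It was 0, 2 and 2 without C56, C59 or C61, where 0.976%, 2.65% and 3.72% of all genes rose. The number that fell was 1 without G48 and 4 without C61, where 2.51% and 4% of all genes fell. Without C61, M8 and G48 together 7 rose and 11 fell, where 7.7% of all genes rose and 6.67% fell. DESeq2 called 13 higher and 2 lower, where it called 10.8% of all genes higher and 8.77% lower. The counts were 0 in AIA against NC and 0 in TZG against AIA. Lox, the enzyme that starts the crosslinking of collagen, stood at 466, 509 and 561 CPM in TZG, 109, 239 and 68.1 CPM in AIA and 90.9, 116 and 54.6 CPM in NC. Every TZG library lay above all others, and G48 did not stand out. It rose by 2.55 ± 0.46 SE on the log2 scale in TZG against NC (a fold of 5.87, edgeR adjusted p = 0.018; 0.062 without C56), and the value was 1.89 ± 0.45 SE in TZG against AIA (edgeR adjusted p = 0.26). DESeq2 called Lox higher in TZG against AIA (adjusted p = 0.0035).

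Of the 17 hydroxylation and folding genes tested, 4 rose in TZG against NC, 23.5%, where 5.79% of all genes rose. Serpinh1, the collagen chaperone HSP47, stood at 1410, 1850 and 1630 CPM in TZG, 999, 1340 and 658 CPM in AIA and 860, 812 and 798 CPM in NC, with a log2 fold change of 0.99 ± 0.25 SE (edgeR adjusted p = 0.042). P4hb, a subunit of prolyl hydroxylase, averaged 1120 ± 76 CPM in TZG, 867 ± 153 CPM in AIA and 663 ± 96 CPM in NC (SD, n = 3 each; edgeR adjusted p = 0.037). Colgalt1, which adds galactose to collagen, averaged 230 ± 8.23 CPM in TZG, 181 ± 29.8 CPM in AIA and 146 ± 14.7 CPM in NC (SD, n = 3 each; edgeR adjusted p = 0.028). P3h1, a prolyl hydroxylase, averaged 109 ± 22.2 CPM in TZG, 77.2 ± 20.8 CPM in AIA and 57.9 ± 11.9 CPM in NC (SD, n = 3 each; edgeR adjusted p = 0.045). Each of these 4 calls was lost without G30, G31, G48, C56, C59 or C61, with edgeR adjusted p of 0.054 to 0.11. Without the AIA library M2, Serpinh1, P4hb and P3h1 were lost too (edgeR adjusted p of 0.067, 0.06 and 0.066), as was P3h1 without M8 (0.051). With one library left out the log2 fold changes ran from 0.9 to 1.09 for Serpinh1 and from 0.66 to 0.84 for P4hb. They ran from 0.59 to 0.71 for Colgalt1 and from 0.75 to 1.05 for P3h1. TZG lay above NC in every library for these 4 genes, without the large excess in G48 that the cartilage collagens showed.

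Degradation genes held the other 3 that rose, 42.9% of the 7 tested, where 5.79% of all genes rose. Mmp8, a collagenase of neutrophils, stood at 51.6, 41.8 and 369 CPM in TZG, 24, 30.1 and 297 CPM in AIA and 0.253, 0 and 0.176 CPM in NC (edgeR adjusted p = 0.019 in TZG against NC and 0.099 in AIA against NC). Mmp9, a gelatinase of neutrophils and osteoclasts, stood at 61.5, 25.7 and 918 CPM in TZG, 15.5, 21.7 and 169 CPM in AIA and 1.46, 0.723 and 0.793 CPM in NC (edgeR adjusted p = 0.029 in TZG against NC and 0.15 in AIA against NC). Mmp13, a collagenase that cuts type II collagen, stood at 34, 3.46 and 675 CPM in TZG, 5.42, 3.19 and 19.7 CPM in AIA and 0.19, 0.789 and 0.176 CPM in NC (edgeR adjusted p = 0.034 in TZG against NC). All 3 lay above NC in every TZG and AIA library, with G48 and M8 the highest of their groups. DESeq2 called Mmp9 higher in AIA against NC (adjusted p = 0.00054). Without C61, M8 and G48, Mmp8 and Mmp9 passed in that comparison (edgeR adjusted p of 0.0035 and 0.039). With limma-voom all 3 TZG calls were lost, with adjusted p of 0.3 for Mmp8, 0.25 for Mmp9 and 0.48 for Mmp13. Without C56 or C59 they were lost too, with adjusted p of 0.055 to 0.11, and Mmp9 and Mmp13 were also lost without C61 (0.076 and 0.089) and Mmp13 without G30, M2 or M6 (0.051, 0.054 and 0.052). Itga1, a collagen-binding integrin chain, stood at 54.1, 38.9 and 47.9 CPM in TZG, 72.6, 66.2 and 61.4 CPM in AIA and 58.5, 53.9 and 50.9 CPM in NC. Its log2 fold change of -0.51 ± 0.14 SE in TZG against AIA did not pass (edgeR adjusted p = 0.27).

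In the authors' deposited table, 11 collagen genes were higher and 4 lower in TZG against NC at a q-value under 0.05, where 8.54% of all genes with a q-value were called. The authors' deposited table has 3 higher and 0 lower collagen genes in TZG against AIA (0.578% of all genes called), and 1 higher and 3 lower in AIA against NC (4.32% of all genes called).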

How the data were processed

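Per the file headers, the authors deposited unnormalised read counts for each gene in 9 libraries, along with FPKM per library and per group and p-values, q-values and log2 fold changes of 3 comparisons. Of their own tests only the number of q-values under 0.05 is printed. The submitters' processing notes name fastp, HISAT2, StringTie 1.3.3b and edgeR 3.30.3 without saying what each did. The genome build and the annotation behind the coordinates are not stated. Of the 9 columns 5 carry the number of a sample title, and G31, G48, M2 and M8 were placed by letter, as in the authors' group means (largest relative difference 0.000732). The FPKM columns of those 4 (4 columns of per-sample values) were not used. Levels per length use gene lengths recovered from the other FPKM columns.

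Counts were tested with edgeR 4.0.16 (R 4.3.3): TMM factors, filterByExpr, robust quasi-likelihood fit of all 9 libraries with a mean per group, and adjustment over 15068 genes. Each SE is the absolute log2 fold change over the root of the F statistic. The test recovered known changes in data simulated with the spread of these libraries. Those changes were all larger than the ones called for type IV and for hydroxylation and folding genes. Recovery of changes of that size was therefore not tried. A count of 0 allows up to 3 reads, 0.183 to 0.239 CPM, covering counting error only. No libraries agreed within sampling noise (chi-square per gene at least 20.2). Alternatives were other scaling, DESeq2 1.42.0, limma 3.58.1, filters, a fit of 2 groups and libraries left out. Sequences are RefSeq's (GRCr8), matched by symbol for 34 of 43 members.

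Members, classes and lists were chosen with earlier results of these data known. Library values are given for the top member per length of each class, for 17 collagens chosen by name, for the 3 smallest p in each direction and for genes past the threshold. Other examples (Col5a3, Col27a1, Col16a1 and averages without library values) were chosen after their values were seen. Of the processing genes, those past the threshold and the 2 smallest p per comparison are named.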

Additional observations from a re-analysis of the deposited data

How the results depend on the processing

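Counts of collagen genes past the threshold depended on the tool and the libraries. With DESeq2 they were 1 higher and 3 lower in AIA against NC, 2 higher in TZG against AIA and 8 higher in TZG against NC. Without C61, M8 and G48 they were 3 lower in AIA against NC, and 2 higher and 8 lower in TZG against NC. With 2 groups in the fit 2 were lower in TZG against NC, and with the 5 columns matched by number 0 were higher and 0 lower. With one library left out the counts in TZG against NC ran from 0 to 3 higher and from 1 to 6 lower, and Col12a1 was lost without C56, C59, C61 or G31. Over all genes the shares in these settings ran from 0.976% to 5.37% higher and from 0.931% to 4% lower. Of the processing genes, DESeq2 called 1 higher in AIA against NC, 1 in TZG against AIA, and 13 higher and 2 lower in TZG against NC. Without C61, M8 and G48 they were 2 higher and 3 lower in AIA against NC and 11 lower in TZG against NC. The higher count in TZG against NC was 5 with limma-voom, 4 with no filter, 5 with 2 groups in the fit, 0 with columns matched by number and 0 to 8 with one library left out, and the lower count ran from 0 to 4. The cause of these shifts was not tested.

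Some log2 fold changes that did not pass changed sign. In TZG against AIA with columns matched by number these were Col1a1 at -0.03 and Col3a1 at -0.14. In TZG against NC without C61, M8 and G48 they were Col1a1 at -0.13, Col1a2 at -0.01, Col3a1 at -0.3 and Col4a2 at 0.14, and Col4a2 stood at 0.13 with columns matched by number. With one library left out Col3a1 ran from -0.04 to 0.88 and Col4a2 from -0.16 to 0.1 in TZG against NC, and Col12a1 from -0.16 to 0.8 in AIA against NC. The collagen share of M6, the one AIA column matched by number, was 5.07%. Per gene length the mean ratio of Col1a1 to Col3a1 was 0.794 in AIA and 0.742 in NC. That of Col1a1 to Col1a2 was 1.46 in TZG, 1.5 in AIA and 1.54 in NC, and that of Col4a1 to Col4a2 was 1.88 in TZG, 1.92 in AIA and 1.64 in NC. No paired analysis was possible because nothing in the labels matches samples of different groups to each other.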
